A study of Bos taurus and Felis catus with 14 samples.

Results

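The microRNAs mir-192, mir-194, mir-215 and mir-122 were examined in 2 sets of microRNA loci predicted by miRWoods, a pipeline that calls hairpin precursors and their mature products from small RNA reads with stacked random forests. Members were taken by name. Every precursor whose name holds 1 of these family names was included, with any letter, copy number or suffix after it, and this gave 9 of the 1305 loci in the sets (4 of 810 bovine and 5 of 495 feline). A further 2 loci, 1 in each species, bear the prefix as- and lie on the opposite strand of a member. They are described as such and were not counted as members.

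The bovine set came from 10 small RNA libraries of Angus steers, 1 library for each tissue. A single steer gave 8 of them, which were retina, iris and optic nerve, dental pulp and oral papillae, penis, bone marrow and submandibular lymph node. Brain stem and the corium of the hoof each came from a further animal. The feline set came from 4 libraries of cats, 2 of skin and 2 of muscle. No treatment or disease status was compared, and neither set includes liver, intestine or kidney. All libraries of a species were called together, so each species has 1 set and no replicate, and the tissue from which a given locus was called cannot be read from the positions. The deposited sets give no read number with a locus. The study's supplement lists read counts of annotated and predicted microRNAs, which were not used here. The depth behind each call was thus not analysed, and the lack of a call for a family says nothing certain about its expression.

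A microRNA precursor folds into a hairpin, and the small RNAs cut from its arms are named 5p and 3p. One of them usually guides silencing of messenger RNAs by pairing through its seed, the bases near its 5′ end. The relatives mir-192 and mir-215 have almost the same mature sequence, and each has a mir-194 gene beside it, so that the genome holds a pair of paralogous clusters. These microRNAs are known as markers of the intestinal epithelium, and also of liver and kidney, and their genes are known targets of p53 and of hepatocyte nuclear factors. The microRNA mir-122 is the most abundant microRNA of hepatocytes and is best known for its role in lipid metabolism and for binding hepatitis C virus RNA.

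Because the 2 sets list positions and no bases, the relation among the families is shown with the human counterparts. The 5p products below are those listed in the study's table of human products, and each was read in established human cell lines. Capitals mark bases 2 to 8, the seed.
hsa-mir-192-5p: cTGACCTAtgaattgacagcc
hsa-mir-215-5p: tGACCTATgaattgacag
hsa-mir-194-1-5p: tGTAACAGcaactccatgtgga
hsa-mir-194-2-5p: tGTAACAGcaactccatgtggaa
hsa-mir-122-5p: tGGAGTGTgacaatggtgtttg
The whole listed mir-215 product, 18 nt long, matched the mir-192 product from its base 2 onward. The listed mir-215 product therefore starts 1 base further in, and its bases 2 to 8 are those 1 base further along in mir-192. This offset belongs to the listed product, since the usual mature form of mir-215 begins 1 base earlier than listed and has the same seed as mir-192. Both human mir-194 copies gave the same 5p product over 22 bases, and the second was listed with 1 base more at its 3′ end.

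The 3p products of the human mir-194 copies are shown for contrast, since the copies can be told apart on this arm. Capitals again mark bases 2 to 8.
hsa-mir-194-1-3p: cCAGTGGAgatgctgttacttt
hsa-mir-194-2-3p: cCAGTGGGgctgctgttatctg
They were identical at 17 of 22 positions, and bases 2 to 8 differed. The bases of the bovine and feline products were not analysed here, so it was not tested whether the copies in those species share them in the same way.

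The bovine set held the complete pair of clusters. On chromosome 29, bta-mir-194-2 (chr29:43731472-43731533, plus strand, 62 nt) was followed by bta-mir-192 (chr29:43731677-43731746, plus strand, 70 nt). On chromosome 16, bta-mir-194-1 (chr16:24306041-24306101, minus strand, 61 nt) was followed, in the direction of transcription, by bta-mir-215 (chr16:24305743-24305805, minus strand, 63 nt). The sources used here do not give the genome build of these positions. All 4 bovine names matched 1 gene each in the RefSeq gene table of assembly ARS-UCD2.0, which is used for names and gene order alone because its relation to the build of the files is not known. In that table MIR194-2 and MIR192 lie within the span of EHD1, an endocytic recycling gene, between CDC42BPG and ATG2A. MIR194-1 and MIR215 lie within the span of IARS2, the mitochondrial isoleucyl-tRNA synthetase, between BPNT1 and RAB3GAP2. Exon, intron and strand relations to these genes were not analysed here. The table also lists MIR194B inside MIR194-1 and MIR194B-2 inside MIR194-2, and no called locus had either of those names.

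The feline set held the same pair of clusters and, in addition, mir-122. On sequence NC_018732.2, a mir-194 locus (108028621 to 108028679, minus strand, 59 nt) was followed by fca-mir-192 (108028427 to 108028492, minus strand, 66 nt). The name of this mir-194 locus carries the suffix that the authors gave to newly predicted loci named by homology. It is called here the mir-194 locus beside fca-mir-192. On NC_018739.2, fca-mir-194 (57870500 to 57870558, minus strand, 59 nt) was followed by fca-mir-215 (57870194 to 57870254, minus strand, 61 nt). The only mir-122 locus called in either set, fca-mir-122, lay on NC_018734.2 (76534046 to 76534106, plus strand, 61 nt). The feline build is likewise not given, and no feline gene annotation was used here, so host genes were read for cow alone.

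In both species mir-194 was the first member of each pair in the direction of transcription, and both mates of a pair were on the same strand. The gap between the precursors of mir-194 and mir-192 was 143 nt in cow and 128 nt in cat, 15 nt shorter in cat. For mir-194 and mir-215 it was 235 nt in cow and 245 nt in cat, 10 nt longer in cat. The mir-215 pair was thus the wider one in each species, by 92 nt in cow and by 117 nt in cat. From the first base of precursor to the last, the mir-192 pair covered 275 nt in cow and 253 nt in cat, and the mir-215 pair 359 and 365 nt.

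Precursor ends are set by the caller, so the pairs were also measured between the first bases of the 5p products. On this measure mir-194 and mir-192 were 205 nt apart in cow and 187 nt in cat, and mir-194 and mir-215 were 296 and 304 nt apart. The direction of each difference between the species was the same by either measure. The map of the pairs shows these distances with the products that were called in each precursor.

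**Figure D1:**
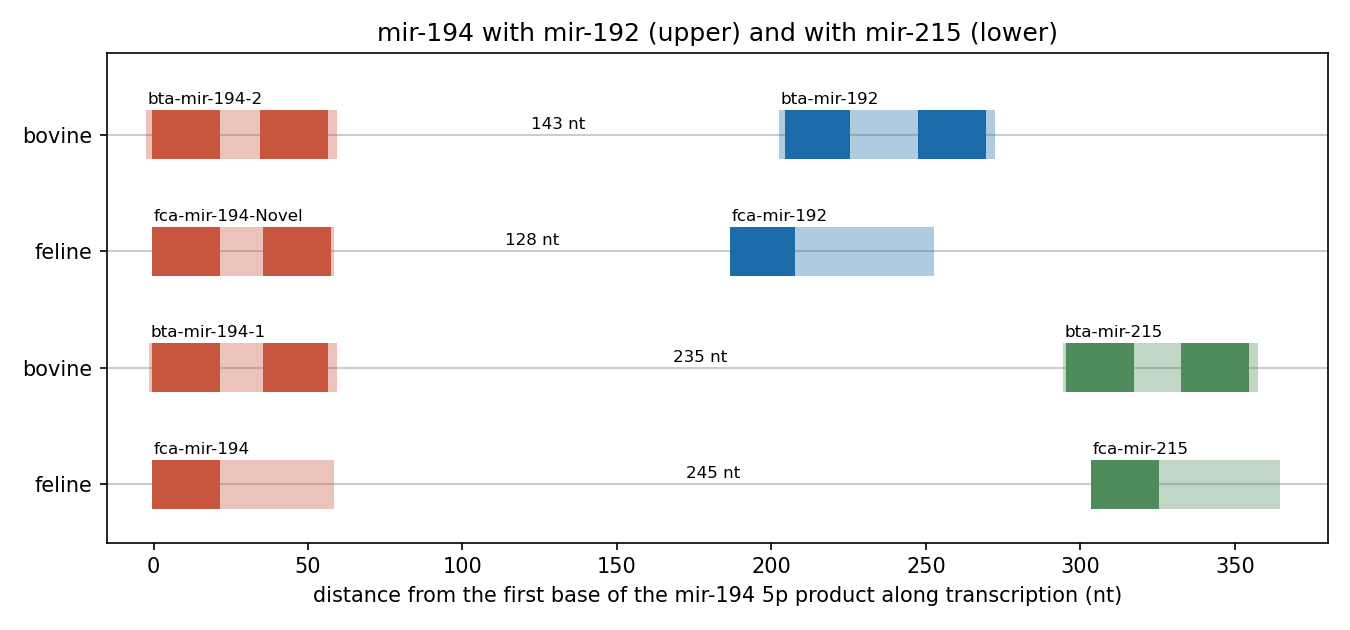
Map to scale of the mir-194 pairs, with distance in nt from the first base of the mir-194 5p product along the direction of transcription on the horizontal axis and 1 row for each pair and species. Light bars are precursors, dark bars are called products, and the gap between precursors is printed (143 and 128 nt for the mir-192 pair, 235 and 245 nt for the mir-215 pair), so that mir-194 is seen to come first in all 4 rows and the 3p product to be missing from 3 of the 4 feline precursors.

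Differences of this size between the species were also found among other microRNA pairs. In all, 40 pairs of families were neighbours at most 10 kb apart exactly once in each species, 38 of them without a member. Over those 38 pairs the gap in cat minus the gap in cow ranged from -980 nt (mir-382 and mir-487) to 462 nt (mir-98 and let-7), with a median size of 25 nt. The gap was longer in cat for 19 pairs, shorter for 16 and equal for 3. A difference of at most 15 nt in size, that of the mir-192 pair, was found in 16 of the 38, and of at most 10 nt, that of the mir-215 pair, in 14. For the 22 of them with a bovine gap under 500 nt, a limit chosen after the values were seen, the median size was 10 nt, below the 15 nt of the mir-192 pair and equal to that of the mir-215 pair. A position in a genome assembly has no replicate, and these values were not tested.

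**Figure D2:**
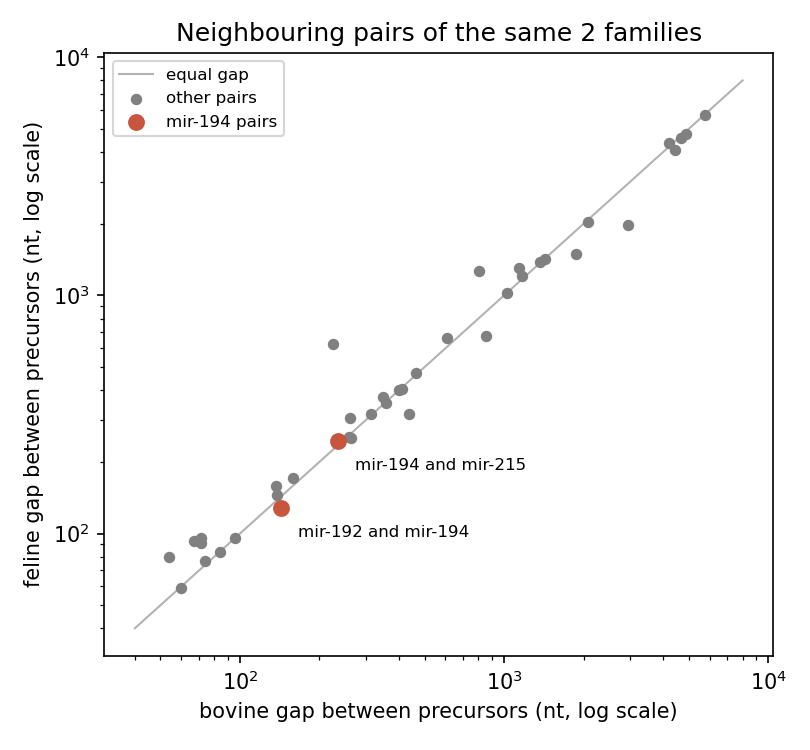
Gap between neighbouring precursors in nt in cow (horizontal, log scale) and in cat (vertical, log scale) for the 40 pairs of families that occur once in each set, with the line of equal gaps. The mir-194 pairs (red) lie close to the line at 143 and 128 nt and at 235 and 245 nt, among the 38 other pairs (grey).

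The mates lay closer together than most neighbouring loci. Among 133 bovine neighbouring pairs the gap of the mir-192 pair ranked 30th from the shortest and that of the mir-215 pair 38th, with a median gap of 594 nt. Among 91 feline pairs they ranked 24th and 30th, with a median of 488 nt. All 4 bovine members and 4 of 5 feline members had a neighbour within 10 kb, which was true of 29.0% of bovine and 33.3% of feline loci. The exception was fca-mir-122. Among loci with a family name, the share was 38.2% in cow (192 of 502) and 48.1% in cat (141 of 293). Each clustered member had its own mate as such a neighbour, and these families were already known as pairs, so the count was largely set by the choice of families.

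Apart from its mate and the opposite-strand loci, no member had another locus within 10 kb. The nearest locus of another family to bta-mir-194-1 was bta-mir-664b, 73771 nt away, whose RefSeq gene lies within the span of the neighbouring RAB3GAP2, and on the other side bta-Novel160 was 3688393 nt from bta-mir-215. On chromosome 29 the nearest loci were bta-Novel114, 733953 nt beyond bta-mir-192, and bta-Novel117, 1169340 nt from bta-mir-194-2. In cat, fca-Novel52 was 73446 nt from fca-mir-192 and fca-Novel61 443168 nt from the mir-194 locus beside it. Around the mir-215 pair, fca-Novel136 was 856251 nt from fca-mir-215 and fca-Novel137 7420200 nt from fca-mir-194. No feline mir-664 locus was thus found next to the mir-215 pair, where the bovine set has bta-mir-664b.

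The sequences that carry the pairs shared other families as well. Bovine chromosome 16 had 17 families and feline NC_018739.2 had 11. They had 7 families in common, namely mir-29, mir-181, mir-199, mir-205 and mir-214 beside mir-194 and mir-215. Chromosome 29, with 9 families, and NC_018732.2, with 14, shared 3 families, mir-192, mir-194 and mir-210. Families were matched by name alone, and no baseline from other sequences was computed.

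The called arms differed between the species. In cow, all 4 members gave a 5p and a 3p product, against 72.5% of all bovine loci (587 of 810, 95% exact binomial interval 69.3 to 75.5%). In cat, 1 of 5 members gave both, against 65.7% of all feline loci (325 of 495, interval 61.3 to 69.8%). It was the mir-194 locus beside fca-mir-192. Among loci with a family name alone, both arms were called in 81.5% in cow (409 of 502) and 81.6% in cat (239 of 293). The intervals treat each locus as an independent draw, although all loci of a set were counted and some are clustered, and they cover no other source of error. With 1 set for each species, the difference between 4 of 4 and 1 of 5 has no replicate check.

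The single-arm members all gave the same arm. The other 4 feline members, fca-mir-192, fca-mir-215, fca-mir-194 and fca-mir-122, each gave the 5p product alone. Among all 54 feline loci that have a family name and products from 1 arm, 23 (42.6%) gave 5p. A read that fits both feline mir-194 loci can be placed at each. The 5p call of fca-mir-194 may thus not be separate from that of the mir-194 locus beside fca-mir-192, and this was not tested. The 5p product of each of these families is also the one usually taken as its guide strand.

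Across both sets, 164 loci bore the same plain name in cow and cat. Of the 161 with both arms in cow, 22 had a single arm in cat, 12 of them 5p and 10 of them 3p, and mir-192 and mir-215 are among the 12. The reverse, a single arm in cow and both in cat, was found for 2 names. The only other shared name with a single arm in cow, 1 name, had 5p alone in both species. The libraries differ between the species in number (10 and 4) and in tissue, and their part in the missing 3p products cannot be told apart from that of the species.

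The 5p products were alike in length in both species. The mir-192 product was 21 nt long in cow and in cat, and those of mir-215 and of both mir-194 copies were 22 nt in each. The product of fca-mir-122 was 22 nt long. In cow the precursor began 1 base before the 5p product for mir-215 and mir-194-1 and 2 bases before it for mir-192 and mir-194-2. In cat the precursor began with the first base of the 5p product in all 4 clustered members, and 2 bases before it in fca-mir-122. A start at the first base of the 5p product was found in 28.7% of the 661 bovine loci with a 5p product and in 34.9% of the 387 feline ones.

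The far side of the hairpin was close in length as well. From the last base of the 5p product to the end of the precursor there were 47 nt in cow and 45 nt in cat for mir-192, and 40 and 39 nt for mir-215. Both mir-194 copies had 38 nt in cow and 37 nt in cat, and fca-mir-122 had 37 nt. The mir-192 hairpin was therefore the longest of the families in each species, and the 2 copies of mir-194 were within 1 nt of each other.

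Where both products were called, their starts lay 43 nt apart in bta-mir-192, 37 nt in bta-mir-215, 36 nt in bta-mir-194-1 and 35 nt in bta-mir-194-2. In the mir-194 locus beside fca-mir-192, the distance was 36 nt, 1 nt more than in its bovine counterpart. Over all 587 bovine loci with both arms the median distance was 38 nt and the quartiles were 36 and 41 nt, so that bta-mir-192 was above that range and bta-mir-194-2 just below it. The stretch between the products was 22 nt in bta-mir-192 and 13 to 15 nt in the other bovine members.

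**Figure D3:**
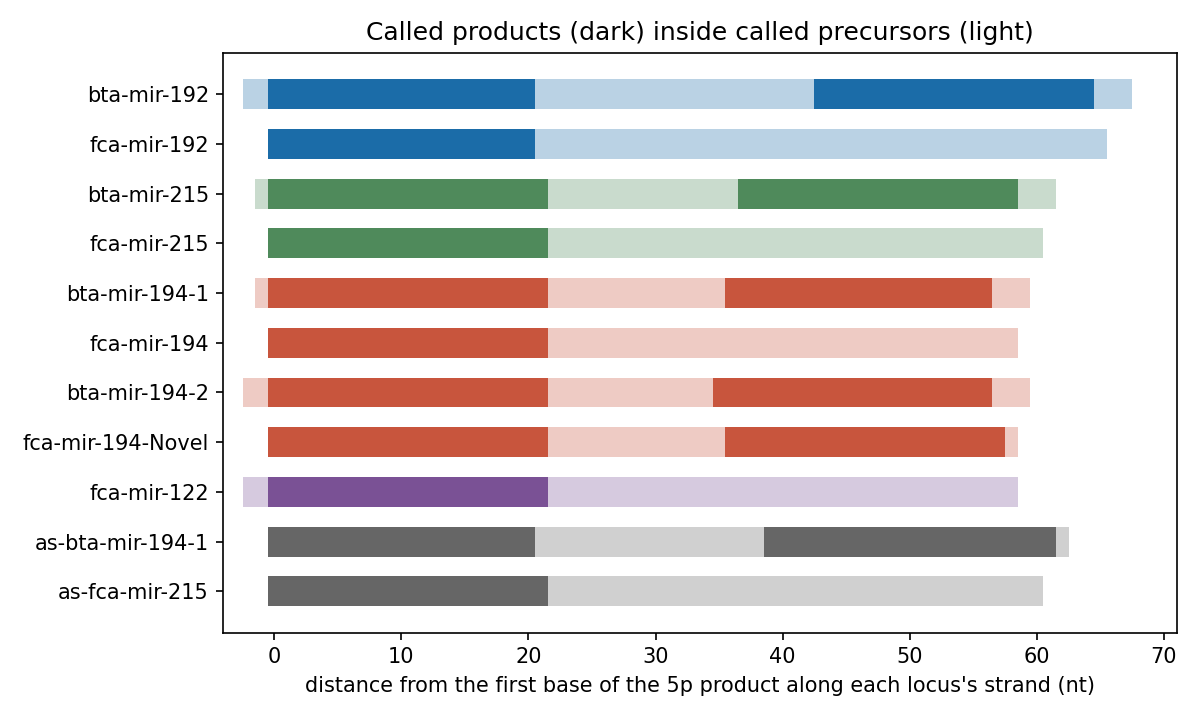
Products (dark) inside precursors (light) for the 9 members and, in grey, the 2 opposite-strand loci, with distance in nt from the first base of the 5p product along the strand of each locus. The 5p products line up at 21 or 22 nt in every member, and a 3p product is present in all 4 bovine members and, among the 5 feline ones, in the mir-194 locus beside fca-mir-192.

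Precursors of mir-194 and mir-215 were shorter than most. With a median of 66 nt over all bovine loci (range 41 to 146 nt), 13.1% of loci were shorter than bta-mir-194-1, 18.3% shorter than bta-mir-194-2 and 25.9% shorter than bta-mir-215. The longer bta-mir-192 exceeded 71.4% of loci. In cat, with a median of 65 nt (range 42 to 121 nt), 6.06% of loci were shorter than the 59 nt of both feline mir-194 loci. For fca-mir-215 and fca-mir-122, both 61 nt, this share was 15.4%, and for fca-mir-192 it was 51.1%. Each clustered precursor was called 2 to 4 nt shorter in cat than its counterpart in cow, between ends that the caller sets. Only bta-mir-194-2 and the mir-194 locus beside fca-mir-192 are counterparts with both products called in each species. From the first base of 5p to the last of 3p they measured 57 nt in cow and 58 nt in cat, so the products did not show this shortening.

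**Figure D4:**
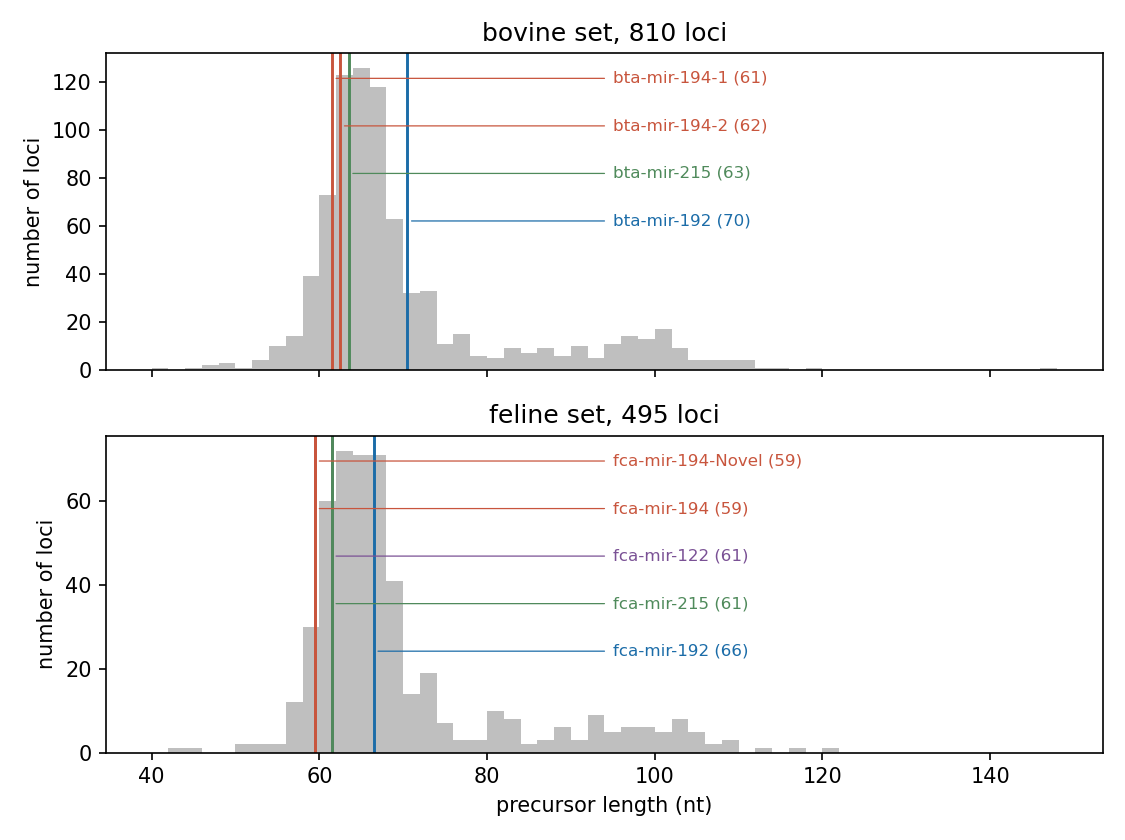
Number of loci (vertical) by precursor length in nt (horizontal, bins of 2 nt) in the bovine set of 810 loci and the feline set of 495, with coloured lines at the members. The mir-194 precursors, at 61 and 62 nt in cow and 59 nt in cat, lie at the short side of the main peak, and mir-192, at 70 and 66 nt, is the longest member in each species.

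A locus on the opposite strand was called at the mir-215 pair in both species, but not at the same hairpin. In cow, as-bta-mir-194-1 (chr16:24306043-24306105, plus strand, 63 nt) covered 59 nt of bta-mir-194-1 and gave products from both arms. Its 5p product overlapped the sense 3p product by 20 nt, and its 3p product overlapped the sense 5p product by 19 nt. In cat, as-fca-mir-215 (NC_018739.2, 57870197 to 57870257, plus strand, 61 nt) covered 58 nt of fca-mir-215 and gave a 5p product alone. That product, 22 nt long, did not overlap the sense 5p product and ended 14 nt from it. Placed at the spacing of the bovine mir-215 products, a sense 3p product would share 21 nt with it, but none was called there.

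Such overlaps were few in either set. A locus on the other strand overlapped 6.17% of bovine and 6.87% of feline loci, and 1 of 4 bovine and 1 of 5 feline members. No opposite-strand locus was called at the mir-192 pair or at fca-mir-122. The human mir-3591 is encoded opposite mir-122, and neither set had a locus of that name.

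No bovine locus was named mir-122. The bovine gene is listed as MIR122 on chromosome 24 of ARS-UCD2.0, outside any other gene, with NEDD4L and ALPK2 as the nearest protein-coding genes. The bovine set held 12 loci on chromosome 24, and the 7 that were found by name in the table all lay on the same side of MIR122. Among them were bta-mir-187, bta-mir-1-2 and bta-mir-133a-2. Of the 7 families on feline NC_018734.2, which carries fca-mir-122 among 16 loci, mir-1, mir-133 and mir-187 were also on bovine chromosome 24. The nearest loci to fca-mir-122 were fca-Novel97, at 10092846 nt, and fca-mir-133-Novel2, at 17245678 nt.

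Of 9 other families known from gut, liver, pancreas or kidney, 7 had a locus in the bovine set and 4 in the smaller feline set. The share of all known families with a locus was not computed, so these counts show nothing particular to families of these organs. Loci of mir-31, mir-147, mir-375 and mir-885 were present in both species. The pancreatic cluster of mir-216 and mir-217 was called in cow alone, with bta-mir-216a, bta-mir-216b and bta-mir-217 all on chromosome 11, as was mir-483, which lies in the gene of insulin-like growth factor 2. No locus of mir-802 or mir-3591 was called in either species. Both arms were called in 81.5% of bovine and 81.6% of feline loci with a family name. Of the listed families, all 8 bovine loci gave both arms, and so did 3 of the 4 feline ones. The other, fca-mir-375, a microRNA of pancreatic islets, gave the 3p product alone, in contrast to the 5p products of the feline members.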

How the data were processed

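Small RNA libraries were prepared with the Illumina TruSeq kit. Per the submitters' notes and the study's methods, reads were trimmed with cutadapt 1.15, aligned with Bowtie and handled with SAMtools. Reads with more than 10 genomic hits were dropped, and a read that fits several places equally well can be placed at each. The deposited values are starts and ends of precursors and products, counted from 1, which the authors called with miRWoods on pooled libraries and which are in no normalized unit. No score or read number accompanies them. The genome build is not stated in the sources used here.

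Positions were read with Python 3.11.15. A gap is the number of bases between spans, and clusters join loci at most 10 kb apart. The code was tested on simulated loci. Intervals are 95% Clopper-Pearson (scipy 1.17.1). Named loci were all members, their opposite-strand loci, nearest neighbours, the pairs with extreme differences and 9 listed families. Members and lists were chosen with earlier results of these data known. Human sequences came from the study's supplementary table.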

Additional observations from a re-analysis of the deposited data

How the results depend on the processing

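The counts of members called, clustered and with both arms changed by less than 1.5 times under every alternative tried, which were counting opposite-strand names, taking families from product names, cluster distances of 1 and 50 kb, same-strand clusters, leaving out opposite-strand names and keeping products of 20 to 24 nt. The ranks of the pair gaps were the same among same-strand pairs. Distances depended on the ends used. Between the lower coordinates of the precursors, which are 5′ ends on the plus strand of the bovine mir-192 pair and 3′ ends in the other pairs, the mir-192 pair was 205 nt apart in cow and 194 nt in cat, and the mir-215 pair 298 and 306 nt. Between the 5′ ends of the precursors, a measure added after seeing the data, these values were 205, 187, 296 and 304 nt, and they were the same between 5p starts. The difference, cat minus cow, was -15 nt as a gap, -11 nt between lower coordinates and -18 nt between 5′ ends or 5p starts for the mir-192 pair, and 10, 8 and 8 nt for the mir-215 pair, so neither changed sign. These shifts follow from the lengths of the precursors included. No paired analysis was possible because the results come from no test and each species has 1 pooled set. Depth per locus was not analysed here, and the read counts listed in the study's supplement were not used. From positions alone, a product or locus that was not called cannot be told from one that is absent.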
